A study of Homo sapiens with 4 samples.

Results

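Some TRAF adaptors and inhibitor of apoptosis (IAP) proteins hold the non-canonical NF-kB pathway off in resting cells. The genes described here are 5 TRAF genes (TRAF1, TRAF2, TRAF3, TRAF4 and TRAF5), 3 IAP genes (BIRC2, BIRC3 and XIAP) and 2 kinase genes (MAP3K14 and MAP3K8). They are 10 of the 56638 gene rows in the deposited count table. The choice went by gene symbol and place in the pathway, without a rule on measured values, but with earlier results of these data known. The RNA came from MV4;11, a human cell line established from acute myeloid leukaemia, in which KMT2A is fused to AFF1 and FLT3 holds an internal tandem duplication. The treated group was 2 libraries of parental cells given CU-T12-9, a small molecule that activates the paired receptors TLR1 and TLR2, at 1 µg/mL for 24 h. The control group was 2 libraries of parental cells given vehicle for 24 h. The sample labels call the vehicle DMSO and the treatment protocol calls it PBS, so these libraries are named DMSO here and a part of DMSO itself in the differences cannot be told apart. All 4 libraries come from 1 cell line, and the labels do not say whether replicate libraries started from cultures of their own. The p-values therefore measure only the spread between these libraries, which may be technical.

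In the textbook account, TRAF3 binds the kinase NIK, the product of MAP3K14, and TRAF2 brings it to the ubiquitin ligases cIAP1 and cIAP2, the products of BIRC2 and BIRC3, which mark NIK for destruction. When receptors such as CD40, the lymphotoxin-β receptor or the BAFF receptor draw TRAF2, TRAF3 and the cIAPs to the membrane, NIK accumulates, activates the kinase IKKα (gene CHUK) and drives processing of the NFKB2 precursor, whose product pairs with RELB. TLR ligands act mainly through the canonical pathway, in which TRAF6 and the IKK complex release NFKB1 and RELA dimers, and BIRC3, TRAF1 and NFKB2 are known targets of those dimers. MAP3K8 encodes the kinase TPL2, which is held by the NFKB1 precursor and passes the signal of TLRs to MEK and ERK.

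The 4 libraries held between 23087102 and 25867733 counted reads, and 14018 genes passed the expression filter. All 11 listed markers of the myeloid leukaemia line were tested, with a summed level, in CPM (counts scaled to the size of the library), of 2331 and 2447 CPM in CU-T12-9 libraries and 3129 and 3046 CPM in DMSO libraries. Lysozyme (LYZ) made up most of that sum, at 1226 and 1327 CPM in CU-T12-9 libraries and 2043 and 1961 CPM in DMSO libraries, and the members went both ways: 6 rose, ITGAM most (log2 fold change 2.06), and 5 fell, MPO most (-4.78). The 6 B cell markers, of a lineage in which TRAF1 and BIRC3 are well expressed, summed to 1.75 and 1.94 CPM in CU-T12-9 libraries and 1.73 and 1.09 CPM in DMSO libraries, and PAX5, the only one of them tested, was higher (log2 fold change 1.03, edgeR adjusted p = 0.0192). The T and NK cell list summed to 2.99 and 2.96 CPM in CU-T12-9 libraries and 6.56 and 5.30 CPM in DMSO libraries. NCAM1 made up most of that sum, at 2.35 and 2.65 CPM in CU-T12-9 libraries and 5.87 and 4.59 CPM in DMSO libraries. CD3D, CD3G, CD2 and LCK had 0 reads in every library, and the erythroid and epithelial markers had no read at all. The 4 fibroblast and endothelial markers summed to 1.45 and 0.972 CPM in CU-T12-9 libraries and 0.192 and 0.251 CPM in DMSO libraries, with none of the 4 at 0 throughout and DCN, a matrix protein gene, at 21 and 15 reads in CU-T12-9 libraries and 0 and 0 in DMSO libraries. Their part in the results was not tested.

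NF-kB factors bind a decamer known as the κB site. Promoters of BIRC3, TRAF3 and MAP3K8 are shown first because they hold a match to a consensus form of it. RefSeq gives 19 promoter windows of 300 bases for the 10 genes (build GRCh38.p14, 250 bases before to 50 after an annotated start). The counts themselves were made on GRCh37 and no position is carried between the builds. The strict motif, GGGA and TTCC with any 2 bases between them, searched on both strands, was found in windows of 1 gene, MAP3K8 (2 of the 19 windows, which overlap and share the match). It stands in 1.61% of all 35116 RefSeq windows and in 1.97% of the 27305 genes. The κB consensus decamer, a looser form that contains the first, was chosen after these sequences were seen. It matched windows of 3 of the 10 genes, BIRC3, TRAF3 and MAP3K8 (5 of 19 windows), and of 13.3% of all genes. It stands in 11.3% of all RefSeq windows, and the 5 include both overlapping MAP3K8 windows. The members have 19 windows for 10 genes, against 35116 for 27305 genes, and more windows per gene make a match likelier. The loosest form, GGG and CC with any 5 bases between them, which contains both others, matched all 10 genes and 61.7% of all genes. A window of each of the 3 genes is printed 5′ to 3′ on the gene's strand with the matches to the κB consensus in capitals.
BIRC3, chr11:102317234-102317533 (+): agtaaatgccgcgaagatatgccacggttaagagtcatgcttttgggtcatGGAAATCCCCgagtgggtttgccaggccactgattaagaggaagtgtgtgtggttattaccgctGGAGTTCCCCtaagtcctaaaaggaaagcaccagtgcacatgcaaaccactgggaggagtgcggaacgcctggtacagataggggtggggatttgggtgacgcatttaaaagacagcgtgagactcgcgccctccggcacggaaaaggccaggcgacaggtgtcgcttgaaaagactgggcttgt
TRAF3, chr14:102777199-102777498 (+): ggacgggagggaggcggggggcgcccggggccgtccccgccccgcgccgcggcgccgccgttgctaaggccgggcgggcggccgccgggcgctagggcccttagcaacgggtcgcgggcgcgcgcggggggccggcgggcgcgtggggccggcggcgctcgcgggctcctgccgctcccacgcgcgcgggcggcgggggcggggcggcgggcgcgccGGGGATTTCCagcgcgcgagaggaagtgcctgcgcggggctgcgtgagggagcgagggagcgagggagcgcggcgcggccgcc
MAP3K8, chr10:30433771-30434070 (+): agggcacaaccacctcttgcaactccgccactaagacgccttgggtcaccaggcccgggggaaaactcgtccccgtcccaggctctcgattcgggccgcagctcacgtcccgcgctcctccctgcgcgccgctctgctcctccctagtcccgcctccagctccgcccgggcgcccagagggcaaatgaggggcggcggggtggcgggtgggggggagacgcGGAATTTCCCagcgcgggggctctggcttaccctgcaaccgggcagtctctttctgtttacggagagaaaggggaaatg
In BIRC3 the matches begin 199 and 135 bases before the annotated start and read on the opposite strand. In TRAF3 the match begins 33 bases before the start, and in MAP3K8 it begins 29 bases before the start and reads on the opposite strand. The other MAP3K8 match, GGGGATTCCC, begins 207 bases before a further start of the same gene. No window of TRAF1, which has 3 annotated starts, matched the κB consensus. Nor did any window of BIRC2, XIAP and MAP3K14, which were higher in CU-T12-9 like TRAF1, or of TRAF2, TRAF4 and TRAF5. A match is a run of letters and not a measured binding site, and nothing about binding follows from a window without one.

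Of the 10 genes 9 were tested, and 7 were higher and 2 lower in CU-T12-9. Across every tested gene, 32.0% were higher and 33.2% lower, 65.2% in all (edgeR quasi-likelihood test, Benjamini-Hochberg adjusted p under 0.05). In all 9 the CU-T12-9 libraries did not overlap the DMSO libraries, as was so for 82.3% of all tested genes. The median log2 fold change of the 9 genes was 0.67, against 0.00 for all tested genes. BIRC3 passed the filter on low counts only through its CU-T12-9 libraries, so a difference was bound to appear there, and 6 of the other 8 genes were higher. BIRC3, TRAF1, MAP3K8 and TRAF3 also passed when the change was tested against a fold of 1.5, a test that 12.6% of all genes passed upwards and 12.0% downwards. Because RNA was pooled from whole cultures, more transcript per cell and more cells with the transcript cannot be told apart. The plot of CPM by library shows the 9 genes in order of their change.

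**Figure D1:**
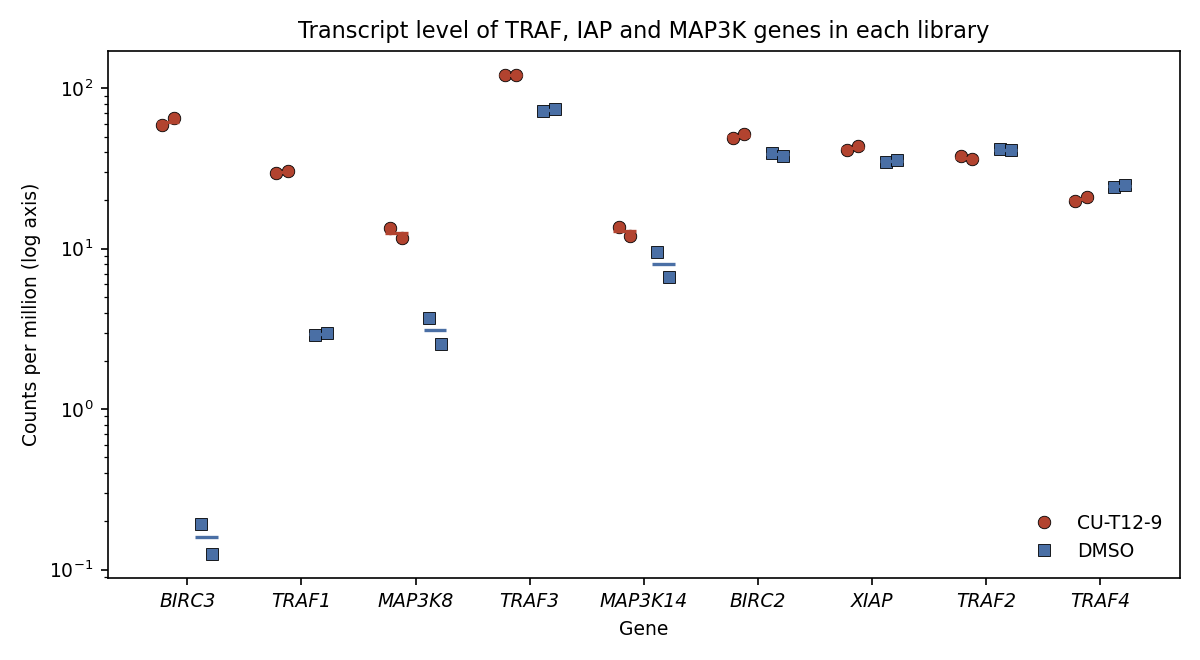
Transcript level of the 9 tested genes in each library, in CPM on a log axis, ordered from the largest rise to the largest fall; points are single libraries and short lines are group means (CU-T12-9 circles, DMSO squares, 2 libraries each). BIRC3 stands at 58.8 and 65.1 CPM in CU-T12-9 libraries against 0.192 and 0.125 CPM in DMSO libraries, while TRAF2 and TRAF4 sit slightly lower in CU-T12-9.

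Among the IAP genes, BIRC3 was near silent in DMSO and abundant in CU-T12-9. BIRC3, which encodes the ubiquitin ligase cIAP2, had 1375 and 1472 reads in CU-T12-9 libraries and 5 and 3 reads in DMSO libraries. Its mean level was 61.9 ± 4.42 CPM in CU-T12-9 and 0.159 ± 0.0471 CPM in DMSO (SD, n = 2 each). Both treated libraries lay far above both controls, and the rise ranked 23 among the 14018 tested genes. Since BIRC3 passed the filter on low counts only through its CU-T12-9 libraries, a difference was bound to appear. The fitted log2 fold change was 8.55 (SE 0.17, edgeR quasi-likelihood adjusted p = 1.27e-09), a 375-fold rise with a 95% interval of 288 to 489. Because the denominator is only 8 reads, the ratio of counts was also taken. It was 387 with an exact 95% interval of 196 to 897 that covers counting error only. The fitted interval is narrower than this, so it and the SE understate the uncertainty of the fold.

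BIRC2, the neighbouring gene on chromosome 11 and the paralog that encodes cIAP1, changed little by comparison. It stood at 49.3 and 52.1 CPM in CU-T12-9 libraries and at 39.6 and 38.0 CPM in DMSO libraries, with no overlap. The log2 fold change was 0.38 (SE 0.06, edgeR adjusted p = 6.21e-04), a 1.31-fold rise with a 95% interval of 1.18 to 1.44. The sources used here do not say how reads that fit both paralogs were counted. In DMSO, where BIRC2 had 1942 reads over both libraries, the BIRC3 row held 8, or 0.412% as many. Whether reads of BIRC3 enter the BIRC2 row in the treated libraries was not tested. TMEM123, the next gene beyond BIRC2, also rose, to 746 CPM in CU-T12-9 against 312 CPM in DMSO (log2 fold change 1.26, SE 0.07, edgeR adjusted p = 5.00e-07).

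XIAP, the IAP that binds and blocks caspases directly, had the smallest rise of the 7. Its level was 41.0 and 43.7 CPM in CU-T12-9 libraries and 34.9 and 35.5 CPM in DMSO libraries. The log2 fold change was 0.27 (SE 0.07, edgeR adjusted p = 0.00615), a 1.20-fold rise with a 95% interval of 1.08 to 1.33. The groups did not overlap, but the call was lost when either DMSO library was left out. The log2 fold change was then 0.24 without the first and 0.27 without the second, and fewer genes in all were called in those fits.

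Among the TRAF genes, TRAF1 and TRAF3 rose, by very different amounts, TRAF2 and TRAF4 were called lower by small margins, and TRAF5 was barely present. TRAF1, an adaptor without the RING domain of its relatives that pairs with TRAF2, had 691 and 688 reads in CU-T12-9 libraries and 75 and 71 reads in DMSO libraries. That is 30.0 ± 0.607 CPM in CU-T12-9 and 2.92 ± 0.0606 CPM in DMSO (SD, n = 2 each). The libraries of each group lay close together and the groups were far apart. The log2 fold change was 3.36 (SE 0.10, edgeR adjusted p = 1.16e-08), a 10.2-fold rise with a 95% interval of 8.69 to 12.1, and 2.23% of tested genes changed more in either direction. PHF19, whose RefSeq span overlaps that of TRAF1, moved the other way, at 28.0 CPM in CU-T12-9 against 76.9 CPM in DMSO (log2 fold change -1.46, edgeR adjusted p = 7.89e-07).

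TRAF3, which docks NIK to the cIAP ligases, was already well expressed in DMSO. It stood at 120.5 and 121.5 CPM in CU-T12-9 libraries and at 72.2 and 74.0 CPM in DMSO libraries. The rise was 1.66-fold (log2 fold change 0.73, SE 0.05, edgeR adjusted p = 2.20e-06), with a 95% interval of 1.53 to 1.80. Changes of this size were common, and 30.7% of tested genes changed more in either direction.

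TRAF2, the RING adaptor that recruits the cIAPs, was 37.7 and 36.4 CPM in CU-T12-9 libraries and 41.8 and 41.1 CPM in DMSO libraries. Its log2 fold change was -0.16 (SE 0.06, edgeR adjusted p = 0.0457), with a 95% interval for the fold of 0.809 to 0.986. This call passed narrowly and was lost under 9 of 12 alternative settings. TRAF4, a family member better known from development and epithelia, was 19.9 and 20.9 CPM in CU-T12-9 libraries and 24.2 and 24.8 CPM in DMSO libraries. Its log2 fold change was -0.27 (SE 0.08, edgeR adjusted p = 0.0142). The groups did not overlap, yet the call was lost with DESeq2 (adjusted p = 0.101) and when either DMSO library was left out. The log2 fold change was -0.29 without the first DMSO library and -0.26 without the second. Fewer genes in all were called under each of these settings.

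TRAF5 was not detectable as expressed at this depth in either group. It had 1 and 1 reads in CU-T12-9 libraries and 0 and 0 in DMSO libraries, and a floor of 3 reads is 0.115 to 0.133 CPM. It was too low to be tested and no fold is given.

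Of the kinases, MAP3K8 rose more than MAP3K14. MAP3K8, the TPL2 kinase upstream of MEK, had 313 and 263 reads in CU-T12-9 libraries and 97 and 61 reads in DMSO libraries. Its level was 12.5 ± 1.25 CPM in CU-T12-9 and 3.14 ± 0.832 CPM in DMSO (SD, n = 2 each). The groups were well apart although the DMSO libraries differed, and the log2 fold change was 1.99 (SE 0.17, edgeR adjusted p = 9.17e-06), a 3.96-fold rise with a 95% interval of 3.01 to 5.21.

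MAP3K14, which encodes NIK itself, had 319 and 273 reads in CU-T12-9 libraries and 247 and 159 reads in DMSO libraries. Its level was 12.9 ± 1.11 CPM in CU-T12-9 and 8.06 ± 2.01 CPM in DMSO (SD, n = 2 each). The lower treated library, at 12.1 CPM, was above the higher control at 9.48 CPM. The log2 fold change was 0.67 (SE 0.16, edgeR adjusted p = 0.00533), with a wide interval for the fold of 1.23 to 2.05. Its size depended on which control was kept: 0.94 without the first DMSO library and 0.43 without the second, on the log2 scale. The row of its antisense transcript, MAP3K14-AS1, held 1.56 CPM in CU-T12-9 and 1.44 CPM in DMSO and was not called (edgeR adjusted p = 0.714). Whether the libraries kept strand is not stated, so reads of the overlapping pair cannot be told apart.

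MAP3K14 and MAP3K8 shared a wide spread within the DMSO pair, exceeded among the 9 genes only by BIRC3 with its 5 and 3 reads. The first DMSO library exceeded the second by 0.51 on the log2 scale for MAP3K14 and by 0.55 for MAP3K8. Of 2670 genes with a mean of 5 to 20 CPM over the 4 libraries, 1.46% and 1.01% had a larger difference in that pair. In DMSO alone MAP3K8 averaged 3.14 CPM, below that band, where counting error is wider, so its 1.01% may overstate how unusual the spread is. Between the CU-T12-9 libraries the differences were 0.18 and 0.20, and 39.2% and 32.5% of those genes differed more.

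To set levels of different genes side by side, CPM was divided by the summed exon length of each gene in GENCODE 29, giving CPM per kilobase of exon (RPKM). In CU-T12-9 the order was TRAF3 (14.6 ± 0.0847 RPKM), BIRC2 (11.2 ± 0.444), TRAF2 (10.1 ± 0.251), BIRC3 (8.24 ± 0.589), XIAP (4.69 ± 0.215), TRAF1 (4.65 ± 0.0941), TRAF4 (4.44 ± 0.157), MAP3K8 (3.47 ± 0.346), MAP3K14 (2.22 ± 0.193) and TRAF5 (0.00482 ± 1.12e-04), each as mean ± SD with n = 2. The libraries of XIAP overlapped those of TRAF1 and TRAF4, the next genes in this order. In DMSO TRAF2 led (11.3 ± 0.130 RPKM), before TRAF3 (8.85 ± 0.153) and BIRC2 (8.56 ± 0.252), which differed by about their spread, then TRAF4 (5.33 ± 0.102), XIAP (3.90 ± 0.0470), MAP3K14 (1.39 ± 0.347), MAP3K8 (0.871 ± 0.231), TRAF1 (0.453 ± 0.00940) and BIRC3 (0.0211 ± 0.00627), with TRAF5 at 0 reads. BIRC3 ranked 4 of 10 in CU-T12-9 and 9 of 10 in DMSO. The lengths depend on the annotated isoforms: with the basic GENCODE set TRAF2 (16.4 RPKM) came before TRAF3 (15.6 RPKM) in CU-T12-9 as well.

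The make-up of the listed TRAF genes and of the listed IAP genes shifted. TRAF1 was 13.6% and 13.9% of the summed per-length level of TRAF1 to TRAF5 in CU-T12-9 libraries, against 1.73% and 1.76% in DMSO libraries. TRAF2 was 30.4% and 29.3% of that sum in CU-T12-9 libraries, against 44.1% and 43.1% in DMSO libraries. BIRC3 was 33.7% and 34.6% of the sum of BIRC2, BIRC3 and XIAP in CU-T12-9 libraries, against 0.202% and 0.135% in DMSO libraries. The sum of BIRC2, BIRC3 and XIAP was 24.1 ± 1.25 RPKM in CU-T12-9 and 12.5 ± 0.212 RPKM in DMSO (SD, n = 2 each), a ratio of 1.93. It is not a total for the IAP family. BIRC5 (24.5 CPM in CU-T12-9, 125 CPM in DMSO), BIRC6 (221 and 175 CPM) and NAIP (53.1 and 61.7 CPM) are outside it. The sum of TRAF1 to TRAF5 was 33.8 ± 0.0846 RPKM in CU-T12-9 and 26.0 ± 0.134 RPKM in DMSO, a ratio of 1.30. TRAF6 (21.7 CPM in CU-T12-9, 16.9 CPM in DMSO) and TRAF7 (155 and 175 CPM) are outside it. The sizes of these shares and sums depend on the exon lengths. TRAF2 has 3663 bases here and 2264 in the basic GENCODE set, while TRAF1 has 6449 in both. Shares and sums were not computed with the basic set.

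**Figure D2:**
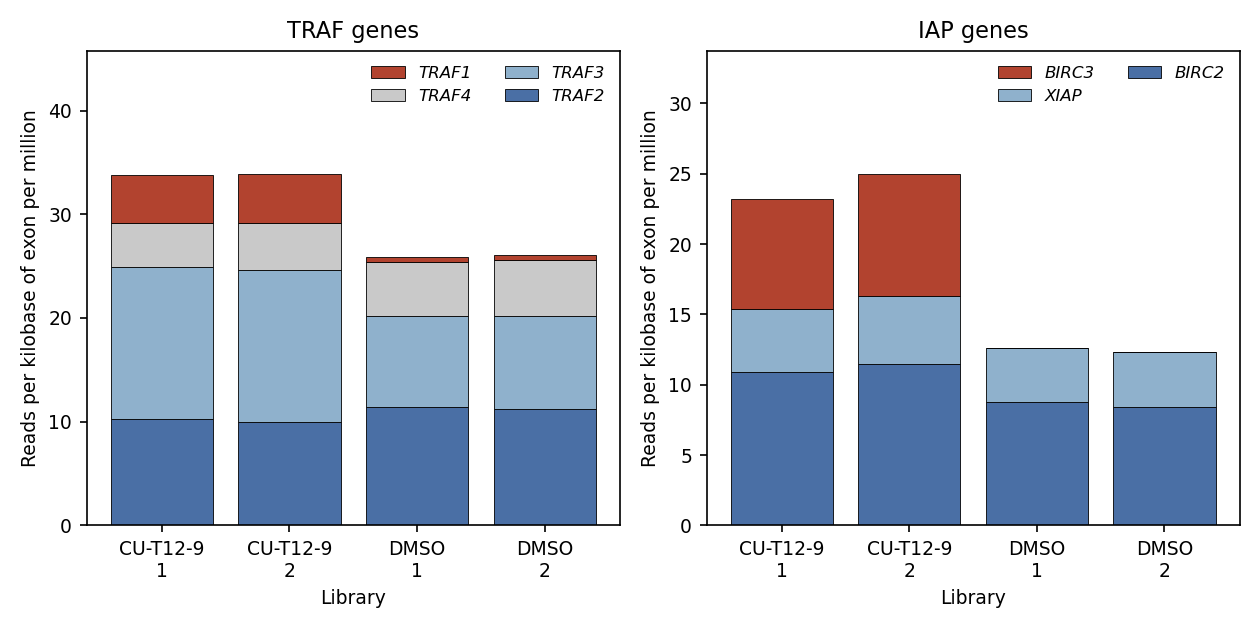
Stacked per-length levels (RPKM) of TRAF1, TRAF2, TRAF3 and TRAF4 at left and of BIRC2, BIRC3 and XIAP at right, 1 bar for each library. The top segment, TRAF1 or BIRC3, is wide in both CU-T12-9 bars and thin in both DMSO bars, and the BIRC3 segment in DMSO (under 0.03 RPKM) is too thin to see.

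Ratios within a library are free of the scaling between libraries. BIRC3 over BIRC2 was 0.720 and 0.753 in CU-T12-9 libraries, against 0.00292 and 0.00199 in DMSO libraries. TRAF3 over TRAF2 was 1.42 and 1.48 in CU-T12-9 libraries, against 0.766 and 0.797 in DMSO libraries, so TRAF3 passed TRAF2 under these exon lengths. MAP3K8 over MAP3K14 was 1.58 and 1.55 in CU-T12-9 libraries, against 0.631 and 0.616 in DMSO libraries, and it was steady within each group although both levels were not. MAP3K14 over TRAF3 overlapped between the groups, with 0.162 and 0.142 in CU-T12-9 libraries against 0.188 and 0.128 in DMSO libraries. With 2 libraries against 2 an exact permutation test cannot go below a two-sided p of 0.333, so these ratios are given without a call.

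**Figure D3:**
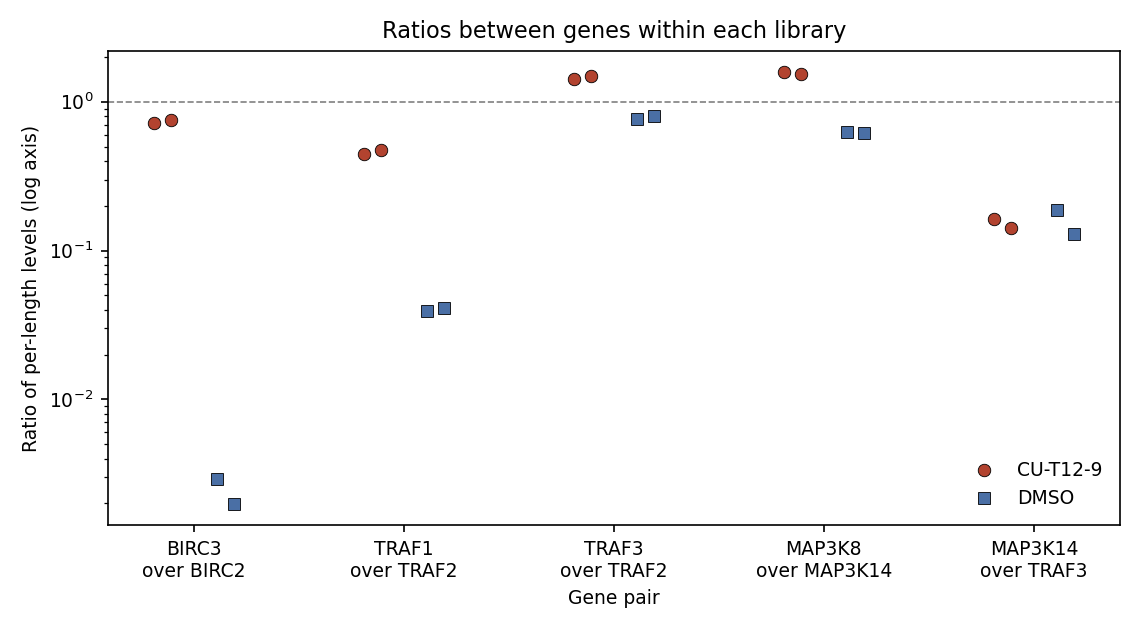
Ratios of per-length levels between pairs of genes within each library, on a log axis, with CU-T12-9 libraries as circles and DMSO libraries as squares; the dashed line marks a ratio of 1. The groups are apart for the first 4 pairs and overlap for MAP3K14 over TRAF3.

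The rest of the pathway was described from a list of 80 further genes in 7 roles, of which 66 were tested, 36 were higher and 11 lower, beside the 32.0% and 33.2% of all tested genes. Their median log2 fold change was 0.28. Against a fold of 1.5, 21 passed upwards and 1 downwards. The higher genes include CD40 and TNFRSF9, which passed the filter on low counts only through their CU-T12-9 libraries.

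Of 14 ligand genes of the TNF family 8 were tested, 7 of them higher and 1 lower, beside 32.0% and 33.2% of all tested genes. CD70, the ligand of CD27, was 114 ± 8.42 CPM in CU-T12-9 and 19.3 ± 0.438 CPM in DMSO (log2 fold change 2.57, edgeR adjusted p = 7.42e-09). TNFSF13B, which encodes BAFF, was 61.4 ± 5.15 CPM in CU-T12-9 and 17.2 ± 1.45 CPM in DMSO (log2 fold change 1.84). The ligand of CD40, CD40LG, had no read in any library. TNFSF13, which encodes APRIL, was the gene that fell, at 8.07 ± 0.980 CPM in CU-T12-9 and 13.0 ± 1.22 CPM in DMSO (log2 fold change -0.68, edgeR adjusted p = 0.00123).

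Receptors that signal through these TRAFs rose in 6 of 10 tested cases (16 listed) and fell in 1, beside 32.0% and 33.2% of all tested genes. CD40 had 774 and 807 reads in CU-T12-9 libraries and 10 and 4 in DMSO libraries, a ratio of 123 with an exact 95% interval of 72.9 to 225. TNFRSF9, the 4-1BB receptor that binds TRAF1 and TRAF2, had 220 and 228 reads in CU-T12-9 libraries and 1 and 5 in DMSO libraries, a ratio of 81.1 (37.0 to 222). Like BIRC3, CD40 and TNFRSF9 passed the filter on low counts only through their CU-T12-9 libraries, so a difference was bound to appear in both. TNFRSF12A, the TWEAK receptor, fell to 1.72 ± 0.132 CPM in CU-T12-9 against 3.06 ± 0.0973 CPM in DMSO (log2 fold change -0.83, edgeR adjusted p = 0.00567). The lymphotoxin-β receptor LTBR, at 66.8 CPM in CU-T12-9 and 68.0 CPM in DMSO, was not called (log2 fold change -0.03, SE 0.06), and the BAFF receptor gene TNFRSF13C was too low to test.

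All 18 adaptor, ligase and deubiquitinase genes were tested, with 12 higher and 3 lower, beside 32.0% and 33.2% of all tested genes. The deubiquitinases TNFAIP3 and CYLD, both brakes on NF-kB, rose most, by 4.25 and 1.97 on the log2 scale. TRAF6, the TRAF of the TLR pathway, was 21.7 ± 0.814 CPM in CU-T12-9 and 16.9 ± 1.06 CPM in DMSO, a rise of 0.36 on the log2 scale (edgeR adjusted p = 0.00532). TRAF3IP3 and the death adaptor FADD fell most, with log2 fold changes of -0.46 and -0.35.

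Of the 12 kinases and their partners 3 were higher, 2 lower and 7 not called. Of all tested genes 32.0% were higher and 33.2% lower. CHUK, the kinase on which NIK acts, was 53.8 ± 1.93 CPM in CU-T12-9 and 55.4 ± 0.723 CPM in DMSO (log2 fold change -0.04, SE 0.06, edgeR adjusted p = 0.545). IKBKE, an IKK-related kinase, rose by 0.69 and MAP2K2, the MEK2 kinase downstream of TPL2, by 0.37 on the log2 scale, and MAP3K7 and TAB1, of the TAK1 complex, had log2 fold changes of -0.20 and -0.17. Of the 5 NF-kB subunits 4 rose: RELB and NFKB2, the non-canonical pair, by 4.10 and 3.85, and NFKB1 and REL by 1.59 and 0.65. RELA was not called (0.09, SE 0.06).

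Of 8 further IAP genes and antagonists 6 were tested, 2 higher and 3 lower, beside 32.0% and 33.2% of all tested genes. BIRC5, the mitotic IAP survivin, fell to 24.5 ± 0.111 CPM in CU-T12-9 against 125 ± 0.0459 CPM in DMSO (log2 fold change -2.35, edgeR adjusted p = 3.55e-09). XAF1, an antagonist of XIAP, rose by 1.83 and BIRC6 by 0.33. HTRA2, a mitochondrial protease that removes IAPs, had a log2 fold change of -0.38. DIABLO, the other mitochondrial antagonist, was not called at 9.58 CPM in CU-T12-9 and 11.0 CPM in DMSO (edgeR adjusted p = 0.123). Among 7 caspase and death kinase genes 2 were higher, 1 lower and 4 not called, to be read beside the same shares. CFLAR, the caspase-8 inhibitor that shares the TNF receptor complex with the cIAPs, rose by 1.75 and CASP9 by 0.55 on the log2 scale.

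**Figure D4:**
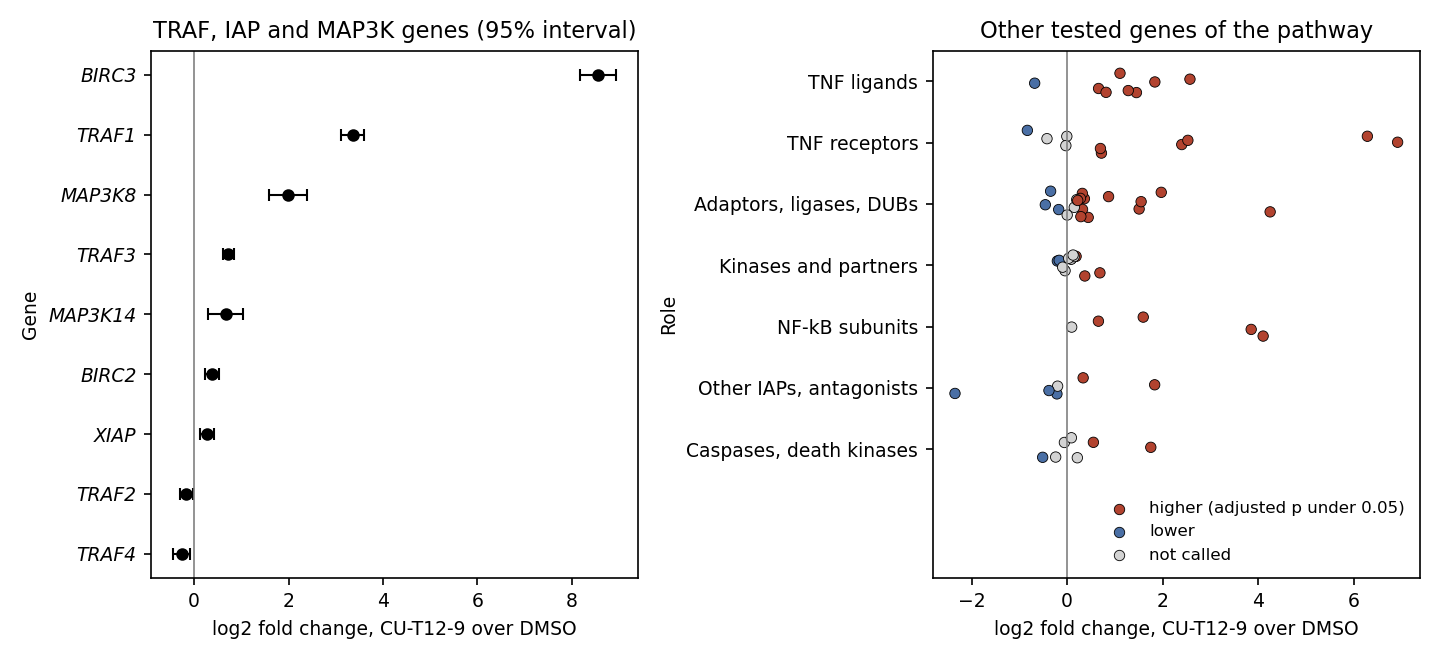
Log2 fold changes, CU-T12-9 over DMSO. At left are the 9 tested TRAF, IAP and MAP3K genes with 95% intervals, from BIRC3 at 8.55 to TRAF4 at -0.27. The interval drawn for BIRC3 is narrower than counting error on its DMSO reads allows. At right each point is another tested gene of the pathway, grouped by role, coloured by its call, with points spread vertically for legibility.

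For likeness, genes averaging 5 CPM or more were ranked by the distance between their centred log2 CPM profiles over the 4 libraries, with 9615 candidates. Nearest to BIRC3 were LGALS2 (distance 0.24, 8.37 on the log2 scale for its change), ITGA1 (0.28, 8.54) and FSCN1 (0.44, 8.57). Their DMSO libraries held few reads, 19 and 14 for LGALS2, 3 and 2 for ITGA1 and 20 and 15 for FSCN1. The sizes of these changes are therefore uncertain, and ITGA1, like BIRC3, passed the filter on low counts only through its CU-T12-9 libraries. Nearest to TRAF4, the gene with the largest fall among the 10, were KLHL8, CHAMP1 and ZC3HC1, with log2 fold changes of -0.27, -0.28 and -0.25. Over 4 libraries in 2 groups this ranks genes mostly by the size of their change.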

How the data were processed

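RNA of MV4;11 cells was measured in 4 libraries, 2 given CU-T12-9 and 2 given DMSO. The authors deposited raw read counts per gene symbol. Per the submitters' processing notes they used FastQC 0.11.7, TopHat2 with GRCh37 and featureCounts 1.5.2. The sources used here do not give the annotation, strand setting or handling of reads with several matches.

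Counts were fitted on the whole table in R 4.3.3 with edgeR 4.0.16 and its quasi-likelihood test (group as the only term, filterByExpr, TMM scaling, Benjamini-Hochberg adjustment over 14018 genes, threshold 0.05). CPM is per TMM-adjusted library size. SE is the log2 fold change over the root of F, and intervals use 95% t quantiles. The coefficient of variation was 5.00%. Exon lengths come from GENCODE 29 and promoters from RefSeq. Exact intervals and the floor of 3 reads cover counting error only.

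The named genes are the 10 members and, per role, the pair with the largest rises and the pair with the largest falls among those called, with central pathway genes (NFKB2, RELB, CHUK, TRAF6 and DIABLO), RefSeq neighbours and the 3 most similar profiles of the extreme members. CD40LG, LTBR, TNFRSF13C, NFKB1, REL, RELA and the single marker genes were named after their values were seen. Members and lists were chosen with earlier results of these data known. Alternatives were DESeq2 1.42.0, limma-voom (limma 3.58.1), other scalings and filters, a fold of 1.5, a replicate block and each library left out. Protein sequences were not used here. A gene that the rule names is not reported here.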

Additional observations from a re-analysis of the deposited data

How the results depend on the processing

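Of 108 refits of single TRAF, IAP and MAP3K genes (9 genes under 12 alternatives) none changed direction, 90 stayed on their side of the threshold and 18 lost the call. BIRC3 (log2 fold change 8.29 to 8.88), TRAF1 (3.33 to 3.41), TRAF3 (0.70 to 0.76) and MAP3K8 (1.74 to 2.28) passed in all 12. Where low counts were filtered, BIRC3 was kept only through its CU-T12-9 libraries, so its passing there was bound to appear. TRAF2 lost its call in 9, TRAF4 in 4, XIAP in 3 and BIRC2 and MAP3K14 in 1 each, the test against a fold of 1.5. The count of members lower, 2 as reported, was 1 with RLE size factors, without a filter on low counts, with a filter of 1 CPM in 2 libraries and with the replicate block. It was 0 with DESeq2 and 0 in the fold test of edgeR (glmTreat), where 0 had an unadjusted p under 0.05 in either, and it ranged from 0 to 2 when 1 library was left out. With limma-voom it was 2. Against a fold of 1.5 the members higher were 4, the other pathway genes 21 higher and 1 lower, and all genes 1761 higher and 1688 lower. Pathway genes lower, 11 as reported, were 7 with DESeq2 and 7 to 11 with 1 library left out. Members higher were 6 or 7 with 1 library left out, and 7 under all other alternatives but the fold test. The cause of these losses was not tested.

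The titles give both groups replicate numbers, but nothing says that a number marks a shared culture or day. Deviations of same-numbered libraries correlated at 0.00795 over genes. With the replicate block as an added term the members higher stayed at 7, TRAF2 had an adjusted p of 0.0688, all genes higher were 4488 and lower 4655, and no other member changed its call. Without the filter TRAF5 was fitted too and did not pass (edgeR adjusted p = 0.440). Depth limits TRAF5 and, through 8 reads in DMSO, the size of the BIRC3 fold. The promoter count depends on the motif: 1 of the 10 genes with the strict form, 3 with the κB consensus, which was chosen after seeing the data, and 10 with the loosest form.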
